A study of Mus musculus with 6 samples.

Results

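Venous endothelial cells of the mouse sciatic nerve were studied in 5 single-cell RNA libraries, at postnatal days 0, 7, 14, 28 and 60 (P0 to P60). A barcode was selected when it held UMIs (unique molecular identifiers, each standing for 1 captured transcript) of at least 3 of 5 endothelial genes (Pecam1, Cdh5, Cldn5, Flt1, Egfl7) and of at least 2 of 4 venous genes (Ackr1, Selp, Vwf, Sele). It could hold at most 1 of 5 arterial genes (Gja5, Gja4, Bmx, Sema3g, Efnb2) and none of 5 genes that mark lymphatic, Schwann, mesenchymal or macrophage cells (Prox1, Mmrn1, Sox10, Pdgfra, Csf1r). Of 50973 nerve barcodes that passed quality filters, 479 met all of these conditions (7, 4, 285, 72 and 111 cells in order of age), and they were thus chosen by the measured UMIs of these 19 genes. They were compared with the 3460 other cells that passed the endothelial genes and held none of the last 5 genes, called other endothelial cells here.

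All animals were C57BL/6 mice, with no other genotype or treatment in the labels. Each library pooled nerves of both sexes, from 22, 21, 18, 15 and 13 animals in order of age, so single animals cannot be told apart. The nerves were digested with collagenase and papain, red cells were lysed and dead cells were removed, steps on which the yield of a cell type also depends. The labels call every library Schwann cell or glia, whereas the nerve libraries also held the endothelial cells described here. Each age had 1 library, so differences between ages carry no p-value. Intervals are exact at 95% and cover counting error only.

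Veins and post-capillary venules are where leukocytes leave the blood. Their endothelium stores von Willebrand factor and P-selectin in Weibel-Palade bodies, granules that fuse with the cell surface on stimulation, and it carries chemokines on the atypical receptor ACKR1. In peripheral nerve, vessels inside the nerve fascicle form the blood-nerve barrier with tight junctions and selective transporters, whereas vessels of the outer sheath are more permeable.

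Promoter letters of the selectin genes Sele and Selp, which helped to define the cells, and of Icam1, a leukocyte ligand, are shown first, because the proteins of all 3 take part in leukocyte adhesion. The levels of Sele and Selp were fixed by the selection. Each is the 250 bases before the RefSeq transcription start (GRCm38.p6), 5′ to 3′ on the gene's strand, at chr1:164047984-164048233 for Sele, chr1:164115014-164115263 for Selp and chr9:21015690-21015939 for Icam1, all on the plus strand. Capitals mark TTCNNNGAA, the pattern bound by STAT factors, which reads the same on both strands.
Sele: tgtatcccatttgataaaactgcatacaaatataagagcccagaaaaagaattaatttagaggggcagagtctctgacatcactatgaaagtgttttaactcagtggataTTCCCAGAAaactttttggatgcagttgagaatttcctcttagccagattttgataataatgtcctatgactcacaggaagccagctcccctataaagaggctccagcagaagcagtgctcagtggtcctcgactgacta
Selp: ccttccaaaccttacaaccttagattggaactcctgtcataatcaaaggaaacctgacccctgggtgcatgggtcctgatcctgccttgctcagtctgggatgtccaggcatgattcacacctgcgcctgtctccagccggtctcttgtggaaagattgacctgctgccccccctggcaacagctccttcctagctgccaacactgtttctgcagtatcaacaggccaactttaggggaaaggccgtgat
Icam1: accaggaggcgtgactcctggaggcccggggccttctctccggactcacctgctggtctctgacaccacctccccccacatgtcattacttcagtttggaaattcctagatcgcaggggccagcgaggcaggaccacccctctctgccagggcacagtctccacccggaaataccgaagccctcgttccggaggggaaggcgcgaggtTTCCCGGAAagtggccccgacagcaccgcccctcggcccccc
The pattern began 140 bases before the start of Sele and 42 bases before that of Icam1, and these letters were not in the Selp window. The search covered 44 genes: the 4 venous genes, the 15 genes with the largest positive differences and the higher genes of the vein, adhesion and signalling lists given below. Of these, 37 had a RefSeq window, and 5 of their 42 windows held TTCNNNGAA, those of Sele, Icam1, Fgl2, Tnfrsf1a and Nfkb2. It occurred in 7.02% of all 32851 promoter windows of this length. A strict form of the NF-kB pattern, GGG and TTTCC with any 2 bases between, was searched on both strands. It was in 3 of the 42 windows (of Nfkb2 and Cd9) and in 1.41% of all windows, and no match of it overlapped TTCNNNGAA. Looser forms of the NF-kB site were not searched, so a window without a match can still hold such a site. A match describes letters and shows no binding.

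The nerve libraries held 60763221 to 101441907 UMIs each. Venous cells were deeper than other endothelial cells, with medians of 7923, 5611.5 and 10034 UMIs at P14, P28 and P60 against 6253.5, 4385 and 6483 UMIs. Median mitochondrial shares were 2.79%, 4.37% and 4.57% in venous cells and 2.47%, 3.34% and 4.07% in other endothelial cells. Over all pairs of nerve libraries, 246 barcodes of kept cells occurred in both, and 0 were venous in both. Among cells with no UMI of the 5 endothelial genes, 0% to 0.459% held at least 2 venous genes, at median depths of 3019.5 to 6850.5 UMIs. Among endothelial cells free of the excluding genes, 4.22% to 28.8% did, at median depths of 4349 to 8396.5 UMIs. The share in cells with no endothelial gene does not bound false selection among endothelial cells, where Vwf was far more frequent. At P14 it was found in 7.19% of cells with no endothelial gene and in 50.1% of other endothelial cells.

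The 4 venous genes chose the cells, so their levels are a description without a test. Levels are given in CPM, a gene's UMIs scaled to a common total of the summed cells, which compares 1 gene between groups and not genes with one another. Vwf, which encodes von Willebrand factor, stood at 1018, 1793 and 1221 CPM in venous cells at P14, P28 and P60, against 260.2, 265 and 302 CPM in other endothelial cells. It was found in 99.3, 98.6 and 97.3% of venous cells and still in 50.1, 38.5 and 46.3% of other endothelial cells. Selp, the gene of P-selectin, separated the groups further, at 235, 494 and 457 CPM against 2.81, 5.30 and 17.1 CPM and in 83.2, 91.7 and 94.6% of cells against 1.13, 0.504 and 3.88%. Ackr1 was found in 53.3, 62.5 and 73.0% of venous cells against 0.900, 0.252 and 2.91% of other endothelial cells. Sele, the gene of E-selectin, an adhesion molecule induced by cytokines, was the sparsest, in 10.9, 20.8 and 18.9% against 0.117, 0.252 and 0.324%. Vwf with Selp and no other venous gene was the most frequent combination at P14 (116 of 285 cells), and Ackr1 with Selp and Vwf was the most frequent at P28 (30 of 72) and P60 (55 of 111). At the edge of the selection, cells with exactly 2 venous genes numbered 163, 29 and 35 at P14, P28 and P60. Cells just outside it, with 1 venous gene and otherwise the same conditions, numbered 779, 109 and 73.

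**Figure D1:**
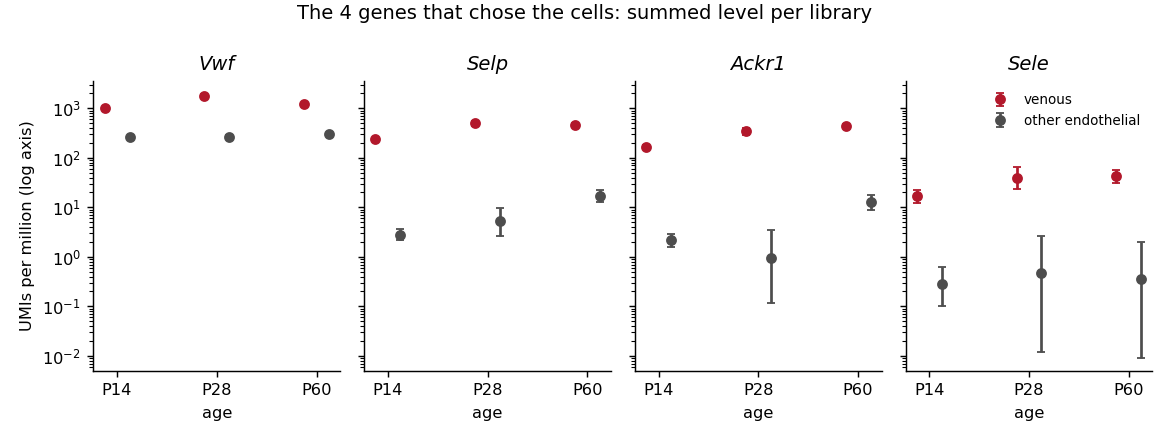
Summed level of each venous selection gene, in CPM on a log axis, in venous cells (red, left) and other endothelial cells (grey) at P14, P28 and P60, 1 library each. Vwf at P14 stood at 1018 CPM in venous cells and 260.2 CPM in other endothelial cells, and Selp at 235 and 2.81 CPM.

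Cldn5, the gene of the tight junction protein claudin-5, was 1 of the 5 endothelial genes but was not required by itself. It stood at 516, 14.1 and 73.2 CPM in venous cells at P14, P28 and P60, against 1289.7, 663 and 1496 CPM in other endothelial cells. A Cldn5 UMI was found in 77.2, 6.94 and 18.9% of venous cells against 82.7, 42.1 and 71.2% of other endothelial cells, so at P28 and P60 most venous cells had none. Flt1, a VEGF receptor, was also lower in venous cells at each of these ages, at 775, 1063 and 878 CPM against 1355, 1828 and 1505 CPM. Cdh5, the gene of VE-cadherin, stood at 1233, 741 and 848 CPM against 1349, 875 and 1090.3 CPM, Egfl7, a secreted vascular protein, at 1785, 1016 and 1534 CPM against 1673, 1148 and 1600.2 CPM, and the adhesion gene Pecam1 at 1549, 1350.5 and 1538 CPM against 1397, 1024 and 1466 CPM. Pecam1 was higher in venous cells at each of these ages, and Egfl7 at P14 alone. As genes of the selection these got no test.

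The share of venous cells among endothelial cells free of the excluding genes was 4.22% at P0 (7 of 166, interval 1.71% to 8.50%) and 9.30% at P7 (4 of 43, 2.59% to 22.1%). It was 10.0% at P14 (285 of 2841, 8.95% to 11.2%), 15.4% at P28 (72 of 469, 12.2% to 18.9%) and 26.4% at P60 (111 of 420, 22.3% to 30.9%). Since a deeper cell passes the rule more easily, each endothelial cell was also thinned to 2000 UMIs, which left out 38, 4, 244, 81 and 39 shallower cells from P0 to P60. The thinned shares were 1.16%, 6.25%, 6.28%, 12.9% and 20%, lower at every age and again highest at P60. All conditions were applied anew after thinning, so cells that had held an excluding gene could enter. These shares were over 172, 48, 2884, 403 and 425 cells, another set than above, so they do not isolate the effect of depth. Without thinning the intervals of P14, P28 and P60 did not overlap, while those of P0 and P7 overlapped. After thinning, the interval of P28 (9.79% to 16.6%) overlapped that of P60 (16.3% to 24.1%), and that of P14 (5.42% to 7.22%) lay below both. Requiring 3 venous genes gave 1.20%, 4.65%, 4.29%, 9.17% and 18.1%. The shares at P0 and P7 rest on 7 and 4 venous cells. Cells that passed the endothelial genes numbered 258, 73, 3588, 603 and 543 from P0 to P60, of 9927, 11222, 9038, 13597 and 7189 kept barcodes. The yield of endothelial cells thus differed widely between libraries, and P7 was counted with another software release. The part of either in the shares was not tested.

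**Figure D2:**
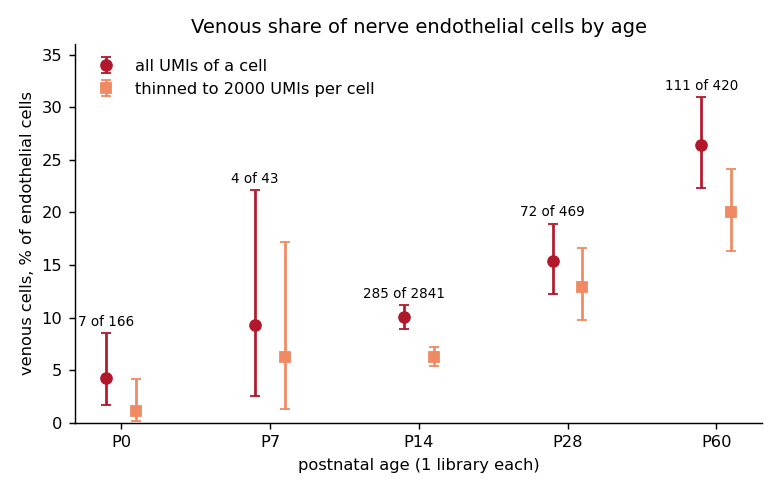
Venous cells as a percentage of endothelial cells at each age, 1 library per age, with all UMIs of a cell (circles) and after thinning to 2000 UMIs (squares). Bars are exact 95% intervals; the share was 10.0% at P14, 15.4% at P28 and 26.4% at P60.

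To describe genes that the selection did not use, UMIs were summed per library over venous cells and over other endothelial cells at P14, P28 and P60, the 3 libraries with at least 10 venous cells. The sums were fitted with the quasi-likelihood test of edgeR and Benjamini-Hochberg adjustment (the edgeR test below), with the library as a block. The p-values set the difference against its spread over these 3 libraries, each of another age. That spread is estimated with information from all tested genes, so p-values and standard errors (SE) do not rest on single genes alone. Of 12204 genes tested, 871 were higher in venous cells (7.14%) and 993 were lower (8.14%), and the median log2 fold change was -0.02. All log2 fold changes below are venous over other endothelial cells, ± SE. The counts depended on single libraries: 488 genes were higher and 573 lower without the P28 library, and 526 and 582 without the P60 library. Against capillary-type cells alone, which held no venous and no arterial gene, 577 were higher and 552 lower.

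Most listed genes known from veins and venules were higher in venous cells. The list was chosen with earlier results of these data known, so its count is no independent support for the label. Some genes stand in more than 1 list and count in each, so the lists are not independent of one another. Of its 17 genes outside the selection, 15 were higher and 1 lower, against 7.14% and 8.14% of all tested genes, and 1 did not pass. The list median was 1.75 against -0.02 over all genes. Nr2f2, the transcription factor COUP-TFII that maintains vein identity, had 391, 518 and 355 CPM in venous cells against 139.7, 248 and 172 CPM in other endothelial cells. The groups did not overlap, and the difference was 1.30 ± 0.11 (adjusted p = 1.25e-12 in the edgeR test). Ephb4, the receptor of ephrin-B2 that marks veins, had 246, 238 and 186 CPM against 152, 133 and 145 CPM, a smaller difference of 0.71 ± 0.11. Lrg1, a secreted glycoprotein of venular endothelium, had 213, 2045 and 1901 CPM in venous cells against 45.7, 285 and 278 CPM in other endothelial cells. It differed by 2.70 ± 0.13 (adjusted p = 4.05e-17 in the edgeR test), and its levels at P28 and P60 were far above those at P14 in both groups. Il6st, the shared receptor chain of the interleukin-6 family, had 1071, 1508 and 1459 CPM against 323, 395 and 412 CPM (1.91 ± 0.11). Slco2a1, the prostaglandin transporter, had 159.7, 475 and 374 CPM against 86.6, 168 and 219.8 CPM (1.11 ± 0.12). The lower gene was Ackr3, a scavenger receptor of CXCL12 (-0.63 ± 0.20), whose call was lost without the P28 library (-0.58) and without the P60 library (-0.31). The smallest higher differences, Lifr (0.43 ± 0.12) and Csf2rb (0.70 ± 0.15), both cytokine receptor chains, lost their calls without the P60 library (0.34 and 0.69), and Lifr also without the P28 library (0.35).

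Levels were also read by the number of venous selection genes that a cell held, without a test, and genes and ages differed in whether they followed that number. Lrg1 at P60 stood at 274, 359.7, 1229, 2111 and 2360.2 CPM in cells with 0, 1, 2, 3 and 4 venous genes. Il6st at P14 stood at 264, 430.5, 924, 1197 and 1667 CPM in the same order. Rgcc, a cell cycle regulator abundant in capillaries, ran the other way at P14, at 911, 392, 192, 118 and 93.4 CPM. Other levels did not follow the number. Lrg1 at P14 was lower with 1 venous gene than with 0, at 72.9, 44.2, 145, 273 and 474 CPM. Ephb4 at P60 stood at 167, 202, 172, 192 and 192 CPM, with no order. Nr2f2 at P60 stood at 132, 221, 299.6, 426 and 268 CPM and Bgn at P60 at 17.1, 48.8, 144, 332 and 156 CPM, both lower with 4 venous genes than with 3. Median depth followed the number of venous genes, at 4883, 5783, 7428, 8682 and 13029 UMIs at P14, and its part in the result was not tested.

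Of called genes with a mean of at least 16 CPM and the same direction in all 3 libraries, the 15 with the largest positive and the 10 with the largest negative differences are named. Fgl2, a membrane prothrombinase and secreted fibrinogen-like protein, had 55.5, 165 and 202 CPM in venous cells against 2.39, 10.1 and 14.2 CPM in other endothelial cells (4.25 ± 0.17, adjusted p = 5.36e-23 in the edgeR test). Against all other cells that passed the endothelial genes it differed by 2.18 and its call was lost. Nt5e, the ecto-5′-nucleotidase CD73 that makes adenosine, had 11.7, 94.1 and 85.8 CPM in venous cells against 0.750, 5.78 and 5.10 CPM in other endothelial cells (4.09 ± 0.26). Anpep, the aminopeptidase CD13, had 14.8, 61.2 and 85.8 CPM against 2.86, 7.23 and 8.75 CPM (2.94 ± 0.24). Enpp6, a choline-specific phosphodiesterase, had 22.1, 80.0 and 33.6 CPM against 2.58, 8.67 and 6.56 CPM (3.00 ± 0.25). In each of these genes the lowest library of venous cells lay above the highest library of other endothelial cells.

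Of the rest of these 15 genes, Pgm5, a phosphoglucomutase relative found at adhesion sites, had 104, 141 and 114 CPM in venous cells against 6.70, 4.34 and 10.6 CPM in other endothelial cells (4.04 ± 0.18). Ptk2b, the calcium-sensitive kinase PYK2, had 28.3, 87.1 and 47.1 CPM against 2.06, 2.41 and 4.37 CPM (4.00 ± 0.26). Tll1, a metalloproteinase of the BMP1 family, had 67.3, 63.5 and 56.4 CPM against 4.78, 6.26 and 5.10 CPM (3.73 ± 0.20). Bmp4, a bone morphogenetic protein, had 130.4, 224 and 239 CPM against 18.6, 23.6 and 43.0 CPM (2.87 ± 0.13, adjusted p = 2.11e-20 in the edgeR test). Vcan, the proteoglycan versican, had 70.0, 75.3 and 27.8 CPM against 5.43, 15.4 and 4.37 CPM (3.26 ± 0.23). Its call was lost when 3 venous genes were required (3.07) and against all other cells that passed the endothelial genes (1.92). Thsd7a (2.86 ± 0.12), Fam174b (3.25 ± 0.30), Rasd2 (3.09 ± 0.33) and Wipf3 (2.99 ± 0.27) were also among the 15, and the adhesion gene Vcam1 is given below.

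Among called genes with a mean of at least 16 CPM, the largest positive difference was in Cadm3, an adhesion gene known from neurons, and its position limits what it shows. Cadm3 had 61.4, 39.997 and 95.9 CPM in venous cells against 2.76, 6.26 and 2.55 CPM in other endothelial cells (4.41 ± 0.27). In GENCODE M21 (GRCm38) it lies at chr1:173333258-173367695 on the minus strand and shares 493 bases with Ackr1 (chr1:173331886-173333750), a selection gene on the same strand. Within venous cells, Cadm3 stood at 103, 45.0 and 122 CPM in those with an Ackr1 UMI at P14, P28 and P60, against 15.2, 29.4 and 29.7 CPM in those without. Among cells with no endothelial gene, 10.2%, 13.3%, 12.04%, 18.9% and 41.5% of those with Cadm3 held Ackr1 from P0 to P60, against 0.452% to 2.71% of the rest. How shared reads were assigned is not given in the sources used here, so the levels of both genes are uncertain. With Ackr1 left out of the selection, a comparison chosen after seeing the data, 242, 67 and 103 cells were selected at P14, P28 and P60, and 844 genes were higher and 950 lower. Cadm3 kept its call in 17 of 17 alternatives, this selection among them, at fitted values of 3.15 to 5.48. These values do not settle how shared reads were assigned.

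F5, the gene of coagulation factor V, was below the level required for naming and was chosen after its values were seen. It had 6, 27 and 10 UMIs in venous cells against 0, 1 and 0 in other endothelial cells, or 2.07, 63.5 and 8.41 CPM against 0, 0.482 and 0 CPM. Its fitted difference of 7.01 ± 0.76 (adjusted p = 9.87e-10 in the edgeR test) was above that of Cadm3 but rests on 1 UMI in other endothelial cells. F5 (chr1:164151838-164220277, plus strand) starts 1811 bases after the end of Selp (chr1:164115264-164150026, plus strand, both in GENCODE M21). All venous cells with F5, 5 at P14, 15 at P28 and 10 at P60, also held Selp, which 82.9%, 89.5% and 94.1% of the other venous cells held too.

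**Figure D3:**
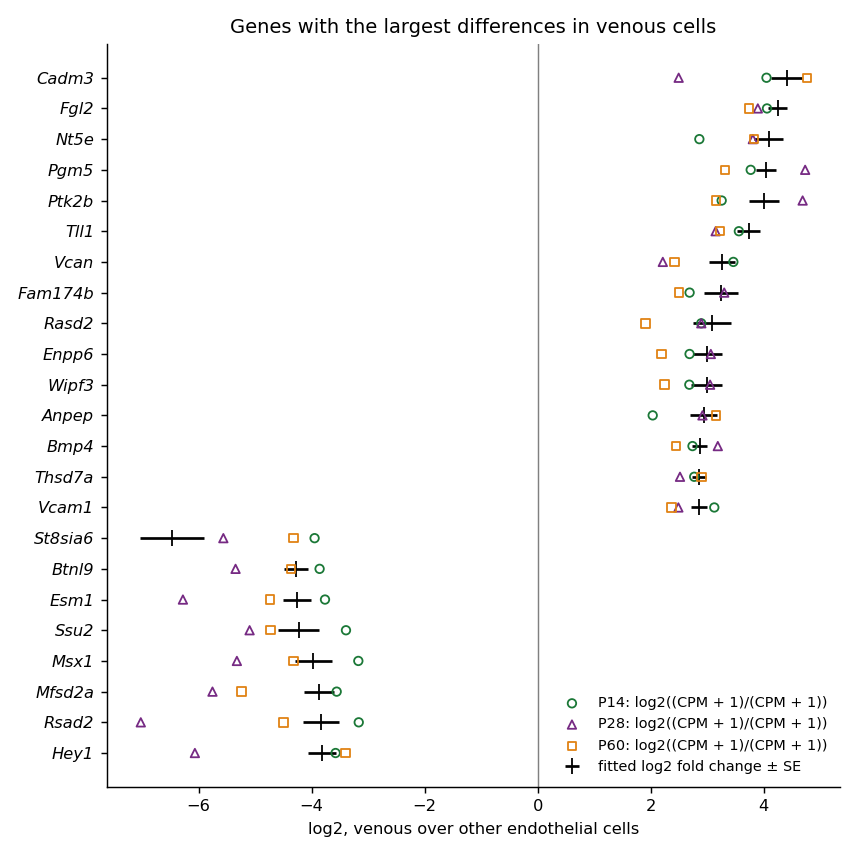
Log2 difference of venous over other endothelial cells for the named genes, as the fitted fold change ± SE (black) and for each of the 3 libraries as a log2 ratio of (CPM + 1). The rule for naming required all 3 libraries on the same side of 0; Alpl and Gkn3, with 0 UMIs in venous cells, are left out.

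Genes of leukocyte adhesion went in both directions. Of 17 tested outside the selection, 7 were higher and 3 lower, against 7.14% and 8.14% of all tested genes. The other 7 did not pass, and the median was 0.20. Icam1 and Vcam1 also counted in the vein list. Icam1, the ligand of the leukocyte integrin LFA-1, had 176, 301 and 217 CPM in venous cells against 45.3, 59.7 and 45.9 CPM in other endothelial cells (2.22 ± 0.12, adjusted p = 9.55e-19 in the edgeR test). Vcam1, the ligand of the integrin VLA-4, had 108, 238 and 225 CPM in venous cells against 11.4, 41.4 and 42.6 CPM in other endothelial cells (2.85 ± 0.14). Neither overlapped between the groups. Chst1 (1.20 ± 0.20), a sulfotransferase, and St3gal4 (0.78 ± 0.14), a sialyltransferase, act in the synthesis of selectin ligands and were higher. Cd9 (0.73 ± 0.11), Cd47 (0.45 ± 0.11) and Jam2 (0.34 ± 0.11) were higher too, and kept their calls in 15, 13 and 7 of 17 alternatives. Cd47 lost its call without the P28 library (0.34) and without the P60 library (0.42). The lower genes were Podxl (-1.43 ± 0.12), a sialomucin, Jam3 (-1.69 ± 0.17), a junctional adhesion molecule, and Cd200 (-1.10 ± 0.11), a ligand that restrains myeloid cells. Icam2, an adhesion ligand of resting endothelium, had 213, 176 and 196 CPM against 263, 233 and 239 CPM and did not pass.

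Of 12 chemokine and cytokine ligand genes tested, 2 were higher and 3 lower, against 7.14% and 8.14% of all tested genes. The list median was -0.05. Cxcl16, a transmembrane chemokine, had 74.2, 42.4 and 37.0 CPM in venous cells against 10.4, 7.23 and 12.4 CPM in other endothelial cells (2.57 ± 0.21), and its call was lost when 3 venous genes were required (2.29). Csf1, the macrophage growth factor, had 34.1, 91.8 and 72.3 CPM against 16.4, 39.99 and 44.8 CPM (1.05 ± 0.15). Cxcl12, the ligand of CXCR4, was lower in venous cells, at 694, 513 and 956 CPM against 4132, 3974 and 3999 CPM (-2.43 ± 0.15, adjusted p = 1.78e-11 in the edgeR test). Its lowest library of other endothelial cells lay above its highest library of venous cells. Cxcl1 (-1.26 ± 0.37) and Cx3cl1 (-0.65 ± 0.21), which attract neutrophils and monocytes, were lower at few UMIs. Both calls were lost without the P28 library (-1.12 and -0.54) and without the P60 library (-0.70 and -0.45). Against capillary-type cells the direction of Cx3cl1 turned (0.11), and its call was kept in 8 of 17 alternatives.

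In the list of NF-kB, interleukin-1 and STAT3 signalling, 9 of 22 genes were higher and 1 lower, against 7.14% and 8.14% of all genes. The other 12 did not pass, and the median was 0.30. Il6st and Il1r1 also counted in the vein list. The higher genes included receptors and adaptors. Il1r1, the interleukin-1 receptor, had 28.6, 132 and 118 CPM in venous cells against 13.5, 31.8 and 28.4 CPM in other endothelial cells (1.75 ± 0.19). Tnfrsf1a, the main receptor of tumour necrosis factor, had 263, 414 and 360.0 CPM against 165, 158 and 196 CPM (1.03 ± 0.12). Traf1, an adaptor of that receptor family, had 19.7, 58.8 and 37.0 CPM against 4.92, 7.71 and 10.2 CPM (2.23 ± 0.25, adjusted p = 1.38e-09 in the edgeR test). Bcl3 (1.40 ± 0.17), a nuclear cofactor of NF-kB, the interleukin-4 receptor gene Il4ra (1.16 ± 0.16) and the transcription factor gene Cebpd (0.89 ± 0.11) were higher as well. The NF-kB inhibitor gene Nfkbia had 498, 548 and 644 CPM against 442, 538 and 593 CPM and did not pass. The lower gene was Irf1 (-0.44 ± 0.12), whose call was lost without the P28 library (-0.44) and without the P60 library (-0.34). Of 17 immediate early and heat shock genes, which dissociation can induce, 0 were higher and 6 were lower in venous cells. Their median was -0.28, and the shares over all genes were those given for the list above.

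Of 20 genes of Weibel-Palade bodies and haemostasis tested outside the selection, 9 were higher, 3 were lower and 8 did not pass. Higher and lower genes made up 7.14% and 8.14% of all tested genes, and the list median was 0.48. Rab27a, a GTPase on the granules, had 49.3, 94.1 and 59.7 CPM in venous cells against 11.5, 25.1 and 19.3 CPM in other endothelial cells (2.00 ± 0.17, adjusted p = 6.63e-13 in the edgeR test). F8, the gene of coagulation factor VIII, which von Willebrand factor carries in blood, had 23.1, 21.2 and 18.5 CPM against 5.11, 3.85 and 4.01 CPM (2.29 ± 0.30). Procr, the endothelial protein C receptor, had 89.3, 136 and 98.4 CPM against 38.4, 36.1 and 48.5 CPM (1.39 ± 0.14). Thbd, the gene of thrombomodulin, which acts with it, was lower, at 159, 195 and 209 CPM against 233, 353 and 329 CPM (-0.58 ± 0.11). Angpt2 (1.34 ± 0.26), a growth factor stored in the granules, and Entpd1 (0.72 ± 0.11), the ectonucleotidase CD39 that acts upstream of CD73, were higher. Plat (-0.89 ± 0.21), an activator of fibrin breakdown, was lower at few UMIs. Its call was lost without the P28 library (-0.78) and without the P60 library (-0.58). Of the other called members, Edn1 (-0.33 ± 0.12), the gene of endothelin-1, was lower but kept its call in 3 of 17 alternatives and turned direction against capillary-type cells (1.33). Ece1 (0.32 ± 0.11), which processes it, and Rab3d (0.59 ± 0.20), a GTPase of secretory granules, were higher and kept their calls in 6 and 7 of 17 alternatives.

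Genes of the blood-nerve barrier, junctions and transport were mostly low in venous cells. Of 25 tested, 14 were lower and 2 higher, against 8.14% and 7.14% of all tested genes. The other 9 did not pass, and the median was -1.25. Mfsd2a, a lipid transporter of barrier endothelium, had 12.1, 0 and 0 CPM in venous cells against 153, 53.0 and 36.8 CPM in other endothelial cells (-3.87 ± 0.27, adjusted p = 8.9e-10 in the edgeR test). Without the P14 library, where all its UMIs in venous cells lay, the fitted value was -9.04. Slc7a5, a large amino acid transporter, had 24.1, 7.06 and 3.36 CPM against 189.6, 62.2 and 53.9 CPM (-3.04 ± 0.19). Itm2a, a membrane protein gene, had 22.8, 16.5 and 15.98 CPM against 192, 219 and 182 CPM (-3.21 ± 0.15). Lef1 (-2.87 ± 0.25), a transcription factor of Wnt signalling, Apcdd1 (-2.76 ± 0.21), an inhibitor of that pathway, and Tnfrsf19 (-3.79 ± 0.40), a receptor of the tumour necrosis factor receptor family, were lower members of this list. Without the P14 library, Lef1 stood at -4.38 and Tnfrsf19 at -7.56. Spock2, a proteoglycan, had 72.4, 49.4 and 25.2 CPM against 616, 379.7 and 319 CPM (-3.13 ± 0.14). Against capillary-type cells Spock2 differed by -1.14, Lef1 by -1.29 and the efflux pump gene Abcb1a by -0.34, and all 3 calls were lost. In the same comparison the lower members Lsr (-1.59 ± 0.20), a receptor of tricellular junctions, and Bsg (-0.75 ± 0.14), the gene of basigin, turned direction (0.21 and 0.44). Slco1a4, an organic anion transporter, had 12.8, 0 and 0 CPM against 127, 89.1 and 154 CPM and did not pass. Slc2a1, the glucose transporter, had 57.9, 87.1 and 43.7 CPM against 289.7, 127 and 126 CPM and did not pass either.

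Plvap, which encodes the diaphragm protein of caveolae and fenestrae found in permeable endothelium, was higher. It had 1005, 2656 and 2868 CPM in venous cells against 776, 1518 and 1644 CPM in other endothelial cells (0.75 ± 0.12, adjusted p = 5.95e-06 in the edgeR test). Its call was lost without the P28 library (0.69) and against capillary-type cells (0.16). By cell, 90.9%, 97.2% and 100% of venous cells held Plvap at P14, P28 and P60, against 56.2%, 57.4% and 55.0% of other endothelial cells. At least 2 of the barrier genes Mfsd2a, Slc2a1, Slco1a4, Spock2 and Slc7a5 were held by 14.7%, 5.56% and 9.01% of venous cells, against 41.3%, 14.1% and 20.4% of other endothelial cells. After thinning to 2000 UMIs the Plvap shares were 74.1%, 98.5% and 98.2% against 41.2%, 53.0% and 48.9%. The thinned barrier shares were 4.61%, 1.47% and 0% (0 of 110 cells, with an upper limit of 3.30%) against 33.1%, 10.4% and 14.2%. At P60 all 10 venous cells with at least 2 barrier genes also held Plvap.

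**Figure D4:**
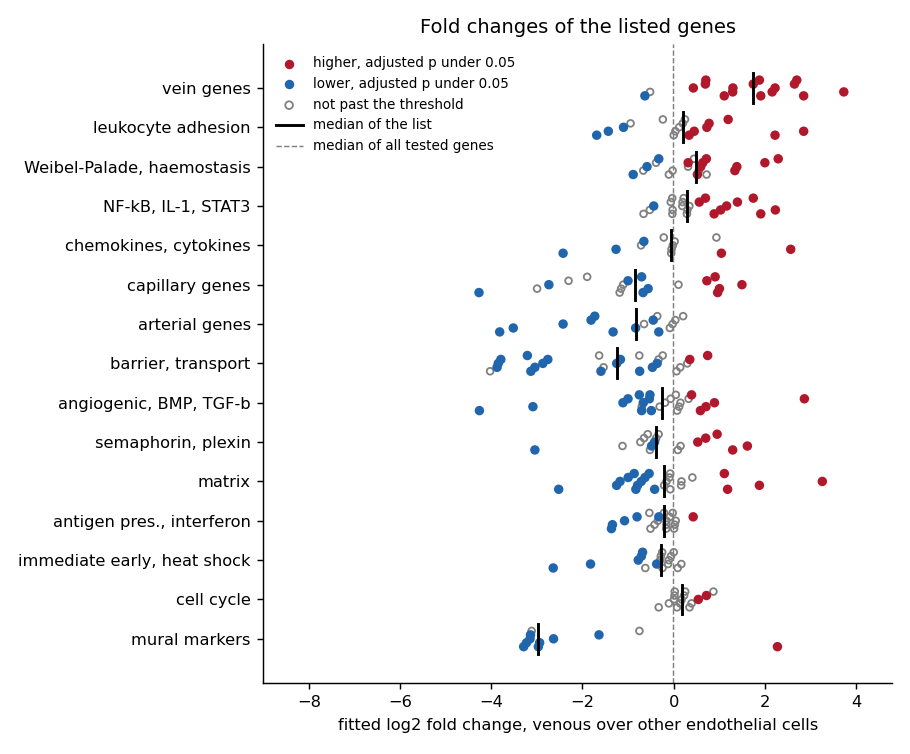
Fitted log2 fold changes of listed genes, venous over other endothelial cells, 1 row per list (red higher, blue lower, open not past the threshold). Black bars are list medians (1.75 for vein genes, -1.25 for barrier genes) and the dashed line is the median of all tested genes; Alpl and Gkn3 are left out.

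Arterial genes were lower, but the selection allowed at most 1 arterial gene per venous cell, so this list is not independent of it. Of 17 tested outside the selection, 11 were lower and 0 higher, against 8.14% and 7.14% of all tested genes, and 6 did not pass. Of the 11, Jag1, Stmn2 and Edn1 turned direction against capillary-type cells (0.31, 1.56 and 1.33). Alpl, alkaline phosphatase, had 0 UMIs in venous cells against 12.6, 87.2 and 75.5 CPM in other endothelial cells, which is at least 54.4-fold lower when the UMIs that venous cells would hold at those levels are set over a floor of 3 UMIs in all venous cells. By library, the upper limits of the ratio were 0.102, 0.101 and 0.0415. Gkn3, an arterial secreted protein, was also at 0 UMIs against 8.85, 111 and 31.0 CPM, at least 36.6-fold lower over the same floor, with upper limits of 0.145, 0.0786 and 0.102. Hey1, a Notch target, had 7.24, 0 and 3.36 CPM against 97.3, 66.0 and 45.2 CPM (-3.82 ± 0.24). Notch1 itself had 199, 266 and 174 CPM against 215, 235 and 221 CPM and did not pass.

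Capillary genes were divided. Of 18 tested, 6 were lower and 5 higher, against 8.14% and 7.14% of all tested genes. The other 7 did not pass, and the median was -0.85. Btnl9, a butyrophilin-like gene of capillaries and arterioles, had 6.55, 2.35 and 4.21 CPM in venous cells against 109, 135 and 106 CPM in other endothelial cells (-4.27 ± 0.21, adjusted p = 8.71e-20 in the edgeR test). Car4, a surface carbonic anhydrase, had 46.2, 0 and 16.8 CPM against 274, 84.3 and 135 CPM (-2.74 ± 0.23). Kdr, the main receptor of VEGF, had 453, 376 and 329 CPM against 885, 885 and 701 CPM (-1.001 ± 0.11). The fatty acid binding protein genes went the other way. Fabp4 had 23912, 14053 and 20432 CPM against 10059.5, 7912 and 13904 CPM (0.96 ± 0.14), and its call was lost without the P28 library, at 1.003. Fabp5 had 1949, 1270.5 and 1121 CPM against 668, 491 and 451 CPM (1.499 ± 0.11). The homeobox genes Meox1 (1.005 ± 0.13) and Meox2 (0.91 ± 0.12) and the apelin receptor gene Aplnr (0.73 ± 0.12) were the other higher members.

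The rest of the 10 largest lower differences had few UMIs in venous cells. Esm1, a proteoglycan induced by VEGF, had 6.55, 0 and 1.68 CPM in venous cells against 102, 76.6 and 70.7 CPM in other endothelial cells (-4.26 ± 0.24). Rsad2, the interferon-induced gene of viperin, had 10.7, 0 and 6.73 CPM against 104, 129 and 174 CPM (-3.83 ± 0.32). St8sia6 (-6.47 ± 0.56), a sialyltransferase, Ssu2 (-4.23 ± 0.37) and Msx1 (-3.97 ± 0.33), a homeobox factor, were lower too. Fitted values this far below 0 move with single libraries: without the P14 library Ssu2 stood at -8.46, Msx1 at -5.61 and Esm1 at -5.67, and without the P60 library St8sia6 stood at -9.94. Other interferon-induced genes were lower by less. Isg15 had 52.4, 49.4 and 63.9 CPM against 101, 195 and 224 CPM (-1.36 ± 0.16), and Irf7 (-1.34 ± 0.21), Ifit1 (-1.08 ± 0.16), Ifit3 (-0.80 ± 0.18) and Bst2 (-0.32 ± 0.11) were lower too. The call of Bst2 was lost without any 1 of the P14, P28 and P60 libraries (-0.32, -0.31 and -0.32). In the whole list of antigen presentation and interferon genes, these 5 of 19 were lower and 1, Ifitm3 (0.43 ± 0.12), was higher. Lower and higher genes made up 8.14% and 7.14% of all tested genes, and the list median was -0.21. Ifitm3 lost its call without the P28 library (0.48) and without the P60 library (0.41).

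In the list of angiogenic, BMP and TGF-beta genes, 5 of 24 were higher and 10 lower, against 7.14% and 8.14% of all tested genes. The other 9 did not pass, and the median was -0.25. Beside the higher Bmp4, the BMP target genes Id1 and Id3 were lower. Id1 had 400.1, 275 and 484 CPM in venous cells against 669, 574 and 827 CPM in other endothelial cells (-0.75 ± 0.11), and Id3 differed by -0.67 ± 0.11. Smad7 (-0.70 ± 0.12), an inhibitor of the pathway, and Acvrl1 (-0.53 ± 0.11), the receptor ALK1, were lower, although Acvrl1 stood at 0.24 against capillary-type cells. Eng, the co-receptor endoglin, had 841, 1176 and 1013 CPM against 722, 597 and 621 CPM (0.71 ± 0.13) and lost its call without the P28 library (0.56). Tgfb2 had 17.6, 0 and 1.68 CPM against 120.4, 72.3 and 47.4 CPM (-3.09 ± 0.29), with -5.25 without the P14 library. Over the alternatives its fitted value reached up to -1.12, and its call was kept in 15 of 17. Apln, the ligand of the apelin receptor, was higher, at 118, 44.7 and 32.0 CPM against 68.3, 12.0 and 24.4 CPM (0.90 ± 0.17). Tgfbr3 (0.59 ± 0.11), a co-receptor of TGF-beta, and Tek (0.39 ± 0.11), the angiopoietin receptor, were the other higher members, and Tek lost its call without the P28 library (0.34) and without the P60 library (0.42). Tgfbr3 was not called against capillary-type cells (0.34).

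Of 23 matrix genes, 11 were lower and 4 higher, against 8.14% and 7.14% of all tested genes. The other 8 did not pass, and the median was -0.21. Mgp was among the lower genes and turned direction against capillary-type cells (1.18). The lower genes included basement membrane chains. Col4a1 had 2124, 376 and 379 CPM in venous cells against 3111, 1009 and 983 CPM in other endothelial cells (-0.997 ± 0.14), and Col4a2 (-0.87 ± 0.13), Lama4 (-0.83 ± 0.12), Nid2 (-1.25 ± 0.17) and Hspg2 (-0.54 ± 0.11) were lower with it. Fn1, the gene of fibronectin, had 38.6, 51.8 and 18.5 CPM against 159.8, 394 and 201 CPM (-2.52 ± 0.21). The higher genes encode fibres and proteoglycans. Eln, the gene of elastin, had 1898, 1205 and 545 CPM against 653, 517 and 388 CPM (1.18 ± 0.16). Fbln2, a fibulin that binds elastic fibres, had 1600.5, 1108 and 759.6 CPM against 532, 601 and 513 CPM (1.11 ± 0.16), and its call was lost when 3 venous genes were required (0.99). Bgn, the gene of biglycan, had 100.4, 358 and 239 CPM against 26.1, 113 and 71.1 CPM (1.88 ± 0.11), and Vcan was given above.

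The series concerned the semaphorin SEMA3B, and genes of semaphorins and their receptors were therefore read in venous cells. Of 17 tested, 5 were higher and 3 lower, against 7.14% and 8.14% of all tested genes. The other 9 did not pass, and the median was -0.38. Nrp2, a receptor of class 3 semaphorins and of VEGF-C, had 566, 492 and 426 CPM in venous cells against 256, 199 and 185 CPM in other endothelial cells (1.30 ± 0.11, adjusted p = 9.17e-13 in the edgeR test). Plxnb2, a plexin for class 4 semaphorins, had 72.8, 115 and 98.4 CPM against 26.4, 37.1 and 32.8 CPM (1.62 ± 0.14). Plxna4, a plexin that pairs with neuropilins, had 52.4, 77.6 and 38.7 CPM against 25.6, 30.4 and 33.2 CPM (0.95 ± 0.17). Sema7a, a membrane-anchored semaphorin, was lower, at 48.6, 7.06 and 13.5 CPM against 283, 220.2 and 221 CPM (-3.04 ± 0.42, adjusted p = 0.0401 in the edgeR test). The other called genes were Sema6a (0.53 ± 0.11) and Sema6b (0.70 ± 0.15), which were higher, and Sema6d (-0.48 ± 0.14) and the plexin Plxna2 (-0.42 ± 0.12), which were lower. Sema6d and Plxna2 lost their calls without the P14 library (-0.42 and -0.36) and without the P60 library (-0.43 and -0.39), and Plxna2 also against all other cells passing the 5 endothelial genes (-0.24). Sema6b was not called against capillary-type cells (0.37). Sema3b itself was at 3.79, 14.1 and 0 CPM against 5.72, 14.9 and 2.92 CPM and did not pass. Nrp1 had 729.5, 391 and 312 CPM against 675, 920.3 and 728 CPM and did not pass, being lower in the P28 and P60 libraries of venous cells and not in that of P14.

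Markers of other cells had UMIs in both groups, and the mural list moved with the comparison. Of 11 mural markers, 8 were lower in venous cells and 1 higher, against 8.14% and 7.14% of all tested genes. The other 2 did not pass, and the median was -2.97. Acta2 was among the lower markers and turned direction against capillary-type cells (0.99). Its call was also lost with doublets removed (-1.58) and with cells that held mural genes left out on both sides (-0.89). It was kept in 13 of 17 alternatives. The pericyte genes Kcnj8, Abcc9, Pdgfrb and Notch3 stood between 0 and 10.1 CPM in venous cells, against 12.6 to 70.0 CPM in other endothelial cells. Tagln, an actin-binding protein best known from smooth muscle, was the exception, at 1339, 1967 and 2878 CPM in venous cells against 377, 353 and 588 CPM in other endothelial cells (2.28 ± 0.13, adjusted p = 5.78e-16 in the edgeR test). With Tagln included, the mural list summed to 1407 to 3023 CPM in venous cells against 666 to 1429 CPM. Myh11, the smooth muscle myosin, was at 1.72, 2.35 and 4.21 CPM in venous cells, against 19.1, 51.1 and 31.3 CPM. With every cell that held 1 of 6 mural genes (Rgs5, Kcnj8, Abcc9, Pdgfrb, Notch3, Myh11) left out on both sides, a comparison chosen after seeing the data, 768 genes were higher and 766 lower. These shared 83.5% of the higher genes and 73.3% of the lower genes of the full comparison.

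The remaining marker lists gave few calls, beside 7.14% higher and 8.14% lower over all tested genes. Schwann markers summed to 100.1 to 216 CPM in venous cells against 96.6 to 286 CPM, with 1 of 8 higher, L1cam (1.64 ± 0.26), and 0 lower, and S100b was at 0 in venous cells at P60. Mesenchymal markers summed to 291 to 1336 CPM in venous cells against 466 to 3105 CPM, with 3 of 7 tested lower, the collagen genes Col1a1, Col1a2 and Col3a1. Perineurial markers summed to 145 to 278 CPM in venous cells against 106 to 312 CPM, with 1 of 7 higher, Itgb4 (1.16 ± 0.12), and 2 lower, Lypd2 (-1.15 ± 0.33) and Tenm2 (-0.94 ± 0.29), whose calls were lost without the P28 library (-0.80 and -0.72) and, for Tenm2, without the P60 library (-1.01). Macrophage and leukocyte markers summed to 69.7 to 114 CPM in venous cells against 66.0 to 106 CPM, with 0 of 9 called, and the T cell gene Cd3e was at 0 in venous cells of all 3 libraries. Lymphatic markers summed to 15.98 to 39.997 CPM in venous cells against 49.2 to 72.8 CPM, with 1 of 4 lower, Flt4 (-1.11 ± 0.20), and Ccl21a was at 0 throughout. Platelets also store P-selectin and von Willebrand factor: their markers summed to 27.2 to 51.8 CPM in venous cells against 18.5 to 32.8 CPM, with Gp1bb, Gp9 and Treml1 at 0 in venous cells of all 3 libraries and Itga2b, 1 of 3 tested, higher (1.57 ± 0.26). Red cell markers summed to 4.21 to 3527 CPM in venous cells against 8.75 to 1608 CPM, almost all at P14, with 0 of 5 called. The part of such RNA in the differences was not tested.

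Venous cells of different ages are described from 1 library per age. Of 6063 genes with at least 100 UMIs in venous cells of P14 and P60 together, 75 (1.24%) were over 2-fold higher at P60 by the whole interval of the ratio and 121 (2.00%) were over 2-fold lower. The median log2 ratio was -0.24. Scaling by the median of ratios in place of the total raised every ratio by 0.22 on the log2 scale, and then 127 were higher and 76 lower.

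Among the highest ratios, Lrg1 had a ratio of P60 over P14 of 8.93 (8.17 to 9.78) in venous cells and of 6.07 in other endothelial cells, and its level at P28 was as high as at P60 in both groups. Clu, the chaperone clusterin, had 23.8, 494 and 502 CPM in venous cells at P14, P28 and P60, a ratio of 21.1 (16.4 to 27.5), against 73.8, 532 and 486 CPM in other endothelial cells, a ratio of 6.58. Nt5e (7.32, interval 4.92 to 11.1) and Anpep (5.79, interval 4.01 to 8.47), both among the largest venous differences, were lowest at P14 too, and their ratios in other endothelial cells were 6.81 and 3.06. Lgals3, the lectin galectin-3, had 55.9, 278 and 334 CPM in venous cells (5.98, interval 4.97 to 7.22), against 14.01, 37.6 and 68.2 CPM, a ratio of 4.87. Cytl1, a secreted cytokine-like protein, had 0 UMIs in venous cells at P14, with an upper limit of 1.27 CPM, and 28.2 and 114 CPM at P28 and P60, against 3.28, 48.2 and 41.2 CPM in other endothelial cells, a ratio of 12.6. Sncg (6.79, interval 5.70 to 8.13), of the synuclein family, and Xdh (6.50, interval 4.58 to 9.38), xanthine dehydrogenase, completed the list with 2 class I genes, and in other endothelial cells Sncg had a ratio of 6.50 and Xdh one of 7.25.

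Antigen presentation genes were higher at P60 in both groups. H2-Q6 and H2-Q7, non-classical class I genes with near-identical copies between which reads may be split, had ratios of 18.05 (10.5 to 33.3) and 14.6 (9.77 to 22.7) in venous cells, against 24.3 and 19.5 in other endothelial cells. H2-K1, a classical class I gene, had 387, 727 and 1222 CPM in venous cells (3.16, interval 2.92 to 3.42), and B2m, the shared light chain, 405, 875 and 1343 CPM (3.32, interval 3.08 to 3.58), with ratios of 3.44 and 3.16 in other endothelial cells. Of the 19 listed genes, 16 had an interval above 1 and 0 had one below 1, with a median log2 ratio of 1.09 in venous cells and 1.05 in other endothelial cells. Of 10676 genes with at least 20 UMIs in venous cells of both ages together, the level needed for these counts, 9.35% had an interval above 1 and 25.9% had one below 1. Genes of the immediate early and heat shock list, named above as inducible by dissociation, moved the same way, with 15 of 17 intervals above 1 and 1 below 1 and a median log2 ratio of 0.88 in venous cells and 1.51 in other endothelial cells. Their part in the result was not tested.

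Cell cycle genes were among the lowest ratios. Mki67, the proliferation antigen, had 87.3, 39.997 and 1.68 CPM in venous cells at P14, P28 and P60, against 99.5, 8.67 and 0.729 CPM in other endothelial cells. At P28 its level in venous cells was above that in other endothelial cells, from 17 UMIs. Top2a, a topoisomerase of dividing cells, had 77.3, 32.9 and 0.841 CPM against 72.9, 16.4 and 1.46 CPM, and Cenpf, Birc5, Ube2c, Prc1, Pclaf and Hist1h1b were likewise at or near 0 at P60. Of 15 replication and mitosis genes, 14 had an interval below 1, against 25.9% of all such genes, and the median log2 ratio was -1.76 in venous and -1.80 in other endothelial cells. Between the groups, 2 of the 15 were higher in venous cells, Ube2c (0.72 ± 0.24) and Cenpf (0.54 ± 0.19), against 7.14% of all tested genes. Both calls were lost without the P28 library (0.71 and 0.50). Ube2c also lost its call without the P14 library (0.33) and Cenpf without the P60 library (0.54). Mboat2, a phospholipid acyltransferase, had 49.0, 9.41 and 1.68 CPM against 43.1, 22.6 and 13.5 CPM.

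Most listed matrix genes of venous cells were lower at P60 as well. Of 23, 16 had an interval below 1 and 5 had one above 1, against 25.9% and 9.35% of all such genes, with a median log2 ratio of -0.89 in venous cells and -0.63 in other endothelial cells. The 5 were Mgp (3.25, interval 2.82 to 3.76), Emilin1 (2.02, interval 1.29 to 3.16), Bgn (2.38, interval 2.01 to 2.81), Timp3 (1.11, interval 1.03 to 1.20) and Adamts1 (1.78, interval 1.42 to 2.21). Of the mesenchymal markers with enough UMIs, 3 of 5 had intervals below 1 and 1 had one above 1, with a median log2 ratio of -1.36 in venous cells and -1.21 in other endothelial cells, and their part in the result was not tested. Col4a1 had a ratio of 0.178 (0.162 to 0.196) in venous cells and 0.316 in other endothelial cells, and Eln one of 0.287 (0.264 to 0.312) and 0.594. Rgcc had 157, 7.06 and 24.4 CPM in venous cells (0.155, interval 0.103 to 0.226) against 566, 602 and 499 CPM (0.882). Gpihbp1, which anchors lipoprotein lipase in capillaries, had 646, 139 and 182 CPM (0.281, interval 0.243 to 0.324) against 743, 450.0 and 729.8 CPM (0.982). Neither Rgcc (-3.00 ± 0.90) nor Gpihbp1 (-1.11 ± 0.54) passed the edgeR test between the groups. Of 18 capillary genes, 10 had an interval below 1 and 3 above 1, with a median log2 ratio of -0.70 in venous cells and 0.22 in other endothelial cells. Of 17 vein genes, 12 had an interval above 1 and 2 below 1, with a median log2 ratio of 1.06 in venous cells and 0.77 in other endothelial cells. Plvap had a ratio of 2.85 (2.72 to 3.00) in venous cells and 2.12 in other endothelial cells. The differences between the ratios of the groups were not tested.

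**Figure D5:**
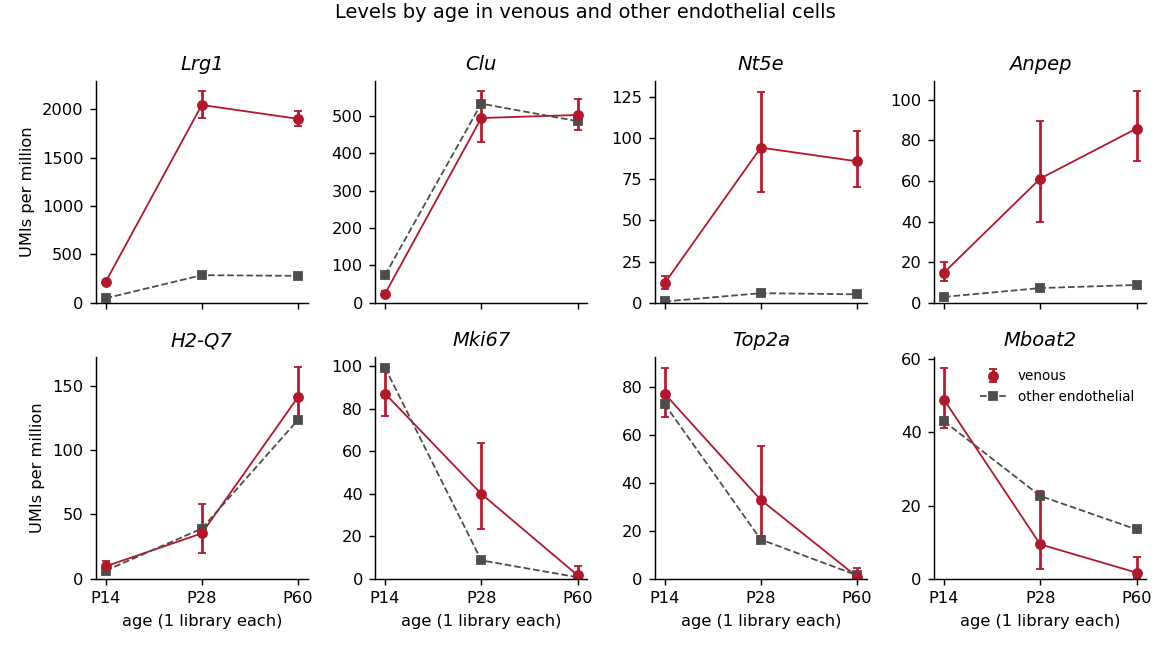
Levels in CPM at P14, P28 and P60, 1 library each, in venous cells (red circles) and other endothelial cells (grey squares). Bars are exact 95% Poisson intervals of venous cells, and none are drawn for other endothelial cells. Lrg1 in venous cells stood at 213, 2045 and 1901 CPM and Mki67 at 87.3, 39.997 and 1.68 CPM.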

How the data were processed

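Single-cell 10x libraries of sciatic nerve at 5 ages, and 1 of dorsal root ganglion nuclei at P14, were deposited as raw UMI counts per gene and barcode. Per the file headers the authors used Cell Ranger 5.0.1, with 7.0.0 for P7 and 7.1.0 for the ganglion library. Seurat and the build mm9 stand in the submitters' processing notes, while the gene IDs match GENCODE M21 on GRCm38; no source used here gives the counting rules for overlapping genes and introns. The 52081 genes shared by the libraries were used.

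Barcodes with at least 500 UMIs, 300 genes and at most 20% mitochondrial UMIs were kept. Genes were matched by Ensembl ID. Doublets were scored with Scrublet (scanpy 1.11.5) and kept in the main comparison; it called 3, 1 and 0 venous cells at P14, P28 and P60. At P0 it called 0%, so the highest-scoring 8% were used there, which came to 9.01% with barcodes tied at that score. Sums per library and class were fitted with edgeR 4.0.16 (TMM, default expression filter, robust quasi-likelihood, R 4.3.3), with calls at an adjusted p under 0.05. The library is a block because its paired sums share their pooled animals. Alternatives used DESeq2 1.42.0, other filters, other selections and each library left out. On simulated counts of the 12204 genes, the fit recovered 43% of 2-fold and 90% of 4-fold changes, with 4 false calls of 137. The simulation changed 100 genes by each fold and gave every gene the same spread beyond counting error. It held the difference between the classes equal at all ages, so its false calls do not measure those in the data. Levels by age carry exact Poisson and conditional intervals. Genes were named by a rule: the 15 largest positive and 10 largest negative differences, list members, selection genes, and the 10 highest and 10 lowest ratios of P60 over P14. Members and lists were chosen with earlier results of these data known. A few genes are not reported here and were left out of the lists.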

Additional observations from a re-analysis of the deposited data

Results flagged for a closer look

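The ganglion nuclei, which no comparison used, also held cells that met the selection. They were 9 of 106 endothelial nuclei, or 8.49% (3.96% to 15.5%, exact binomial interval), at a median depth of 1930.5 UMIs. Of 5203 ganglion nuclei with no UMI of the 5 endothelial genes, 0 held at least 2 venous genes, with an upper limit of 0.0709% (exact), at a median depth of 1971 UMIs.

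In 17 listed genes the ratio of venous over other endothelial cells had intervals excluding 1 in opposite directions at different ages, and 3 of them differed by at least 1.5-fold each way, a limit chosen after the values were seen. With 1 library per age these differences between ages were not tested, and the intervals cover counting error only. Ccl2, a monocyte chemokine, had a ratio of 11.5 at P14 (7.14 to 18.9) and of 0.110 at P60 (0.0129 to 0.422), from 16.2, 9.41 and 1.68 CPM against 1.41, 20.7 and 15.3 CPM at P14, P28 and P60. Ncam1, a Schwann cell marker here, had ratios of 1.79 at P14 (1.11 to 2.79) and, from 1 UMI in venous cells, 0.136 at P60 (0.00325 to 0.866), from 8.62, 2.35 and 0.841 CPM against 4.83, 12.5 and 6.20 CPM. Lyz2, a macrophage marker, had ratios of 0.148 at P28 (0.00364 to 0.884), from 1 UMI in venous cells, and 1.77 at P60 (1.24 to 2.51), from 17.6, 2.35 and 49.6 CPM against 28.7, 15.9 and 28.1 CPM.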

How the results depend on the processing

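Against 871 higher and 993 lower genes, DESeq2 called 532 and 517, and a fit with no replicate block, which drops the pairing of both sums of a library, called 136 and 170. Leaving out 1 library gave 488 to 756 higher and 573 to 883 lower genes; P0 and P7 had no sums in the fit. Capillary-type cells as the other side gave 577 and 552. The other alternatives moved these counts by less than 1.5 times. Of 167 called named or listed genes, DESeq2 kept 143 in call and direction, DESeq2 size factors 165, removal of doublets 164, cells within a window of depth 148 of 165 and no block 47 of 166.

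Directions reversed against capillary-type cells for Jag1 (0.31), Stmn2 (1.56), Fbln5 (2.44), Edn1 (1.33), Lsr (0.21), Bsg (0.44), Cx3cl1 (0.11), Acvrl1 (0.24), Mgp (1.18), Atf3 (0.99), Acta2 (0.99), Hba-a2 (-0.79) and Hbb-bt (-0.85) on the log2 scale. They reversed with 3 venous genes for Edn1 (0.097), Ccl2 (-2.30) and Hbb-bt (-1.42), and with Vwf left out of the selection, added after seeing the data, for Edn1 (0.11), Ccl2 (-2.32) and Hbb-bt (-1.43). Without the P14 library they reversed for Ccl2 (-1.99) and Hbb-bs (-1.92) (with 1 library left out, Ccl2 ranged up to 1.98 and Hbb-bs up to 1.08), against all other cells that passed the endothelial genes for Ccl9 (-2.73), Nid1 (-0.43), S100b (-1.44), Scn7a (-1.14), Ptprc (-1.62), C1qc (-2.75) and Pf4 (-2.02), and without cells that held mural genes, also added later, for Mgp (0.19). The causes were not tested.

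With 3 venous genes the shares were 1.20% at P0, 4.29% at P14, 9.17% at P28 and 18.1% at P60. Thinned to 2000 UMIs, with all conditions applied anew, they were 1.16% at P0, 6.28% at P14 and 20% at P60. Over all cells that passed the endothelial genes they were 7.94% at P14, 11.9% at P28 and 20.4% at P60. By age, the median of ratios gave 127 higher and 76 lower genes in place of 75 and 121. Few venous cells at P0 and P7, and 425030 summed UMIs at P28, limit what low genes can show.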
